A study of Homo sapiens with 7 samples.

Results

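Wild-type constructs of short regions are the reporter constructs that carry reference sequence from a candidate region of at most 1200 bp. They were picked by region length alone, as the end minus the start in each construct's name in the authors' table of wild-type against scrambled sequence, and no measured value entered the choice. The choice gave 107 of 358 wild-type constructs, in 35 of 91 regions, and the other 251 constructs lay in 56 longer regions. The regions ran from 195 to 1185 bp, with a median over constructs of 714 bp, against 1798 bp over all wild-type constructs. The study read candidate regions in the C4-2B line, human prostate cancer cells established from the LNCaP lineage, with a lentiviral massively parallel reporter assay (lentiMPRA). Its 7 libraries are 3 of RNA and 3 of genomic DNA (gDNA), extracted together at 48 hours after transduction, and 1 that links barcodes to inserts. All of them come from 1 cell line that received the pooled lentiviral library, with no drug, genotype or time contrast, so the comparison here is between inserted sequences within the same cells.

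An enhancer or promoter holds short binding sites for transcription factors, and the reporter assay asks how much RNA such a sequence yields once it is coupled to a reporter gene. In a lentiMPRA the reporter is integrated into the genome, each insert is tied to barcodes in the transcript, and the RNA reads of the barcodes are divided by their gDNA reads so that unequal integration is taken into account. A scrambled sequence usually keeps the bases and loses their order, and it serves as the level without the sequence's own binding sites. A sequence can lie above that level, as enhancers do, or below it, as silencers do. Both kinds are known in prostate cells, where pioneer factors such as the forkhead proteins open chromatin for the androgen receptor.

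Each estimate printed below is the natural log of the odds ratio of RNA over gDNA, wild-type over scrambled sequence, from the authors' logit model, so a positive one means more RNA for the wild-type sequence, a direction read from the name of the table. The value after ± is the standard error implied by the estimate and its z. A construct is called higher or lower at an adjusted p of the authors under 0.05. The table holds 1 value per construct with the replicates already combined, so values per library, read depth, barcode numbers and the spread between the 3 replicates are unknown, and each p measures the error of the authors' model only. The z values spread widely over the whole table (robust SD 4.12), and once they were divided by that spread 1 member, the first CIAO3 construct, was still called. Constructs of 1 region may share sequence and are not replicates of each other. They are numbered along the plus strand of hg38, each by the place of its tested site, which is the base that the paired mutant construct changes. The reference base of the name matched the RefSeq promoter sequence in 27 of 27 checks of sites of the series that fell in a promoter window of GRCh38.p14. A site could be checked more than once. Regions are named by the protein-coding gene that they lie in or nearest to, which does not say that they control it. None of the 35 regions overlapped such a window, which spans 250 bases before to 50 after a gene's start, and the cloned sequences were not used here.

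By the authors' deposited table, 64 of the 107 members were called (59.8%), 31 higher and 33 lower, and 43 were not. The background over all 358 wild-type constructs was 62.3% called, 34.1% higher and 28.2% lower. The members' share is near that background, and the shares were not compared by a test. Without adjustment, a p under 0.05 was reached by 66 members per the authors' deposited table. Of the 35 regions, 7 held higher calls only, 11 lower calls only, 12 both directions and 5 no call. The median of the 104 bounded estimates was -0.03 per the authors' deposited table (quartiles -0.36 and 0.33), against 0.02 over all constructs. The median size of an estimate, whatever its sign, was 0.35 for the members and 0.34 for all constructs per the authors' deposited table. Their median standard errors were 0.12 and 0.11. Larger estimates came with larger errors, with a Spearman's rho of 0.63 between size and standard error over the 104 constructs, which share libraries and may share sequence.

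The other 3 members had estimates beyond 10 in size and standard errors many times larger, as from a fit with no bound, and none was called. They were the only construct near CCT3, a gene of the TRiC chaperonin (chr1:156306970-156307164), the first of the WAVE complex gene WASF2 (chr1:27452638-27453439) and the third of FDPS, the farnesyl diphosphate synthase gene of the mevalonate pathway. Their estimates per the authors' deposited table were -17.38, -18.39 and 18.64, and they are left out of the medians, ranges and correlations.

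Across lengths within the short regions, the balance of the calls and the median estimate moved slightly downward from the shortest class to the longest. This drift was not tested, and it did not go on in the longer regions of the series. Regions of up to 400 bp held 25 constructs in 6 regions, of which 9 were called higher and 6 lower per the authors' deposited table, with a median estimate of 0.06. Regions of over 400 to 800 bp held 33 constructs in 12 regions, with 9 higher and 10 lower calls and a median of -0.05 per the authors' deposited table. Regions of over 800 to 1200 bp held 49 constructs in 17 regions, with 13 higher and 17 lower calls and a median of -0.05 per the authors' deposited table. The called shares were 60.0%, 57.6% and 61.2% from the shortest class to the longest, and higher calls made up 60.0%, 47.4% and 43.3% of the calls. In the regions of over 1200 bp higher calls made up 57.2% of the calls, with a median estimate of 0.05, and over all constructs 54.7%. Of the 25 constructs in the shortest class, 8 lay at ADAMTS2 and 6 at RGL2/TAPBP. The median standard error of all members was 0.12. Spearman's rho of the estimate with length was -0.09 over 104 constructs and -0.17 with 1 construct per region, in 34 regions. The median size of the estimates was 0.221, 0.41 and 0.365 from the shortest to the longest class per the authors' deposited table, beside median standard errors of 0.08, 0.13 and 0.12. Spearman's rho of the size with length was 0.14 over the 104 constructs and 0.05 with 1 construct per region. The part of the error in the order of the sizes was not tested. For called constructs alone the median sizes per the authors' deposited table were 0.351, 0.845 and 0.625.

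The ADAMTS2 region of 342 bp (chr5:179124778-179125119) held 8 constructs, the most of any member region. It lies inside the gene of a proteinase that trims procollagen, 64405 bp from the nearest listed start of a protein-coding gene. From the start of the region to its end the first 4 estimates per the authors' deposited table were 0.20 ± 0.07, 0.82 ± 0.12, -0.22 ± 0.05 and -0.05 ± 0.08 (adjusted p = 0.00479, 3.83e-11, 3.35e-05 and 0.585). Those of the other 4 ADAMTS2 constructs per the authors' deposited table were -0.19 ± 0.06, -0.22 ± 0.07, 0.02 ± 0.05 and -0.22 ± 0.08 (adjusted p = 0.00475, 0.00216, 0.792 and 0.00802). Activity above scrambled sequence lay at the first pair of sites, 11 and 30 bp into the region, while 4 of the next 6 were called lower and 2 were not called. The second ADAMTS2 construct stood 1.04 ± 0.13 (adjusted p = 6.97e-15, by the authors' errors) above the third, whose site lies 22 bp further on. Here and below a difference of this kind carries the error of both constructs, taken as independent, and its p is a two-sided normal p adjusted by Benjamini-Hochberg over 824 same-region pairs of the whole table.

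Near CIAO3, which encodes a targeting factor for cytosolic iron-sulfur clusters, the region of 365 bp lies 334 bp from the gene's start (chr16:741331-741695). Its 4 constructs stood at -1.12 ± 0.06, 0.48 ± 0.08, 0.16 ± 0.06 and 0.07 ± 0.06 (adjusted p = 2.56e-86, 6.44e-09, 0.0139 and 0.292) per the authors' deposited table. All 4 sites fell in the last part of the region, 298, 323, 328 and 362 bp from its start. The first had 3.07-fold lower odds than scrambled sequence and the second 1.61-fold higher odds per the authors' deposited table, although their sites are 25 bp apart. That difference of 1.60 ± 0.10 (adjusted p = 1.33e-59, by the authors' errors) had the smallest p of all 145 pairs in the short regions.

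Where RGL2, a guanine nucleotide exchange factor gene for Ral GTPases, and TAPBP, which encodes tapasin of the MHC class I peptide-loading complex, lie together, a region of 357 bp held 6 constructs (chr6:33300381-33300737). The 3 constructs at 57, 64 and 69 bp stood at -0.30 ± 0.16, -0.74 ± 0.29 and 0.63 ± 0.21 (adjusted p = 0.101, 0.0213 and 0.00479) per the authors' deposited table. The 3 at 237, 260 and 275 bp stood at 0.36 ± 0.19, 0.29 ± 0.13 and 0.51 ± 0.10 (adjusted p = 0.0816, 0.0485 and 2.95e-06) per the authors' deposited table. The far end of the RGL2/TAPBP region was thus above scrambled sequence in all 3 estimates, with 2 called, and the near end held a call in each direction, from sites 5 bp apart.

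A region of 352 bp inside UCKL1, a uridine-cytidine kinase family gene, had no construct below scrambled sequence (chr20:63953376-63953727). Its 3 estimates per the authors' deposited table fell along the region, at 2.74 ± 0.66, 0.35 ± 0.13 and 0.20 ± 0.10 (adjusted p = 0.000131, 0.0121 and 0.0696) for sites 69, 167 and 219 bp from the start. The first UCKL1 estimate, 15.4-fold higher odds per the authors' deposited table, had 1 of the 5 standard errors over 0.5 among bounded members. The shortest region with a bounded estimate, of 278 bp and 320 bp from the start of the translation initiation factor gene EIF1AX (chrX:20142158-20142435), held 3 constructs and no call. They stood at -0.04 ± 0.12, -0.06 ± 0.07 and 0.06 ± 0.06 (adjusted p = 0.769, 0.46 and 0.393) per the authors' deposited table, with folds of odds of at most 1.06 in either direction.

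In the middle length class, a region of 467 bp inside HYAL1, the gene of a lysosomal hyaluronidase, had all 4 constructs called, 2 in each direction (chr3:50308573-50309039). They stood at 0.67 ± 0.05, -1.75 ± 0.42, 0.45 ± 0.14 and -0.89 ± 0.23 (adjusted p = 1.23e-37, 0.000107, 0.00212 and 0.00029) per the authors' deposited table. The second and the third HYAL1 sites lie 3 bp apart, and the third stood above the second by 2.20 ± 0.44 (adjusted p = 2.73e-06, by the authors' errors).

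A region of 481 bp lies 13845 bp from MACIR, which encodes a regulator of macrophage metabolism (chr5:103244049-103244529). Its 3 constructs, at 0.88 ± 0.20, -1.70 ± 0.28 and 1.59 ± 0.39 (adjusted p = 5.05e-05, 5.6e-09 and 0.000127) per the authors' deposited table, were all called and reached 4.91-fold higher and 5.47-fold lower odds. The first and second MACIR constructs are named for the same base, 62 bp into the region, the one as the counterpart of a deletion and the other of an insertion. Both are wild-type constructs of this region by their names, and they differed by 2.58 ± 0.34 (adjusted p = 5.76e-13, by the authors' errors). Whether their cloned sequences or their scrambled partners were the same is stated in none of the sources read.

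A region of 499 bp inside LIMA1, an actin-binding protein gene, stood at 0.14 ± 0.12, -1.05 ± 0.13, 0.28 ± 0.07 and -0.02 ± 0.10 (adjusted p = 0.273, 8e-15, 0.000189 and 0.839) per the authors' deposited table (chr12:50189761-50190259). The lower call belonged to the site nearest the centre of the LIMA1 region and the higher one to a site 208 bp further along. Inside JPH3, whose product ties the endoplasmic reticulum to the plasma membrane in neurons, the 4 constructs of a region of 714 bp stood at 0.44 ± 0.19, -0.29 ± 0.08, -0.07 ± 0.09 and 0.57 ± 0.09 (adjusted p = 0.0371, 0.000878, 0.486 and 6.22e-09) per the authors' deposited table (chr16:87680996-87681709). The JPH3 call nearest the centre was the lower one, with a higher call on each side of it.

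The region of 754 bp inside LOC112694756, 1133 bp from the start of the aldolase gene ALDOA (chr16:30062393-30063146), had its middle construct at 2.57-fold lower odds per the authors' deposited table. Its 3 estimates were 0.03 ± 0.13, -0.95 ± 0.07 and -0.30 ± 0.22 (adjusted p = 0.839, 3.64e-35 and 0.231) by the authors' deposited table, and the sites near either end of the LOC112694756 region were not called. The same order held 5559 bp from GGT6, a gamma-glutamyltransferase family gene, in a region of 639 bp (chr17:4566136-4566774). Its 3 constructs stood at 0.15 ± 0.07, -0.85 ± 0.17 and -0.19 ± 0.15 (adjusted p = 0.0542, 4.23e-06 and 0.264) per the authors' deposited table. FDPS, described above for its unbounded estimate, had the others at -0.10 ± 0.21, -0.56 ± 0.50 and -0.85 ± 0.28 (adjusted p = 0.703, 0.327 and 0.00581) per the authors' deposited table, from sites that all lie near the middle of its 419 bp (chr1:155315947-155316365).

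The middle class also held regions with 1 or 2 constructs. The MEIS3 region, 179 bp from the start of a TALE homeobox gene and the nearest of all member regions to a listed gene start (chr19:47421646-47422054), had estimates of -0.04 ± 0.03 and -0.20 ± 0.04 per the authors' deposited table. By the authors' deposited table the second MEIS3 construct was called lower (adjusted p = 3.84e-07), with the smallest size of any call in this class. DCPS, the scavenger decapping enzyme gene, had 0.33 ± 0.06 and -0.02 ± 0.05 per the authors' deposited table, the first called higher (chr11:126305606-126306106). ATXN2, the gene of an RNA-binding protein of stress granules, had -0.90 ± 0.38 and -0.38 ± 0.28 per the authors' deposited table, the first called lower (adjusted p = 0.0303, chr12:111466359-111466958). The only construct near SNX6, a sorting nexin gene (chr14:34553796-34554225), was called higher at 0.80 ± 0.24 per the authors' deposited table (adjusted p = 0.00219). The one near SDHAF1, an assembly factor gene of succinate dehydrogenase (chr19:35986442-35987195), was not called, at -0.02 ± 0.05 per the authors' deposited table.

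In the longest class, SF3A1 and TIMELESS gave the most one-sided regions with 4 constructs, in opposite directions. SF3A1 encodes a subunit of the U2 particle of the spliceosome, and the region of 1076 bp inside it had 3 higher calls and 0 lower (chr22:30351639-30352714). Its estimates per the authors' deposited table were 1.20 ± 0.42, 1.03 ± 0.08, 1.86 ± 0.51 and -0.16 ± 0.09 (adjusted p = 0.00956, 1.82e-32, 0.000689 and 0.117), and the uncalled one belongs to the site nearest the region's end. Along SF3A1 the second construct stood 1.18 ± 0.12 (adjusted p = 2.32e-20, by the authors' errors) above the fourth. TIMELESS encodes a protein of the replication fork, and the region of 1143 bp inside it, 364 bp from the gene's start, had 0 higher calls and 2 lower (chr12:56447920-56449062). Its estimates per the authors' deposited table were -1.73 ± 0.51, -0.26 ± 0.15, 0.36 ± 0.20 and -2.50 ± 0.47 (adjusted p = 0.00176, 0.138, 0.106 and 4.22e-07). The fourth TIMELESS construct, at 12.2-fold lower odds per the authors' deposited table, was the lowest bounded member, and the third, 63 bp before it, stood above it by 2.86 ± 0.51 (adjusted p = 1.05e-07, by the authors' errors).

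The 3 constructs over an end of TTLL3, a tubulin glycylase gene, and of the read-through gene ARPC4-TTLL3 were all called lower, from sites that span 19 bp of a region of 1041 bp (chr3:9836314-9837354). They stood at -0.39 ± 0.13, -1.18 ± 0.17 and -0.36 ± 0.10 (adjusted p = 0.00624, 1.19e-11 and 0.0011) per the authors' deposited table. Both constructs near HNRNPF, which encodes an RNA-binding splicing regulator, were called lower too, at -0.64 ± 0.21 and -1.01 ± 0.15 per the authors' deposited table, from sites 6 bp apart (chr10:43412817-43413878, adjusted p = 0.00404 and 8.86e-11). These HNRNPF values differed by 0.37 ± 0.25 (adjusted p = 0.206, by the authors' errors), which did not pass the threshold. That miss does not show that they act alike.

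UBASH3A, a regulator gene of T-cell receptor signalling, had the highest bounded member (chr21:42440843-42441892). Its 4 constructs stood at 2.98 ± 0.75, 0.10 ± 0.07, -0.05 ± 0.06 and -0.30 ± 0.12 (adjusted p = 0.000227, 0.165, 0.486 and 0.0245) per the authors' deposited table, the first 279 bp into a region of 1050 bp with 19.7-fold higher odds and the widest standard error of the bounded members. A region of 1185 bp inside the zinc finger gene ZNF276 stood at -0.14 ± 0.09, 0.37 ± 0.10, -0.09 ± 0.07 and -1.96 ± 0.34 (adjusted p = 0.151, 0.000394, 0.297 and 4.47e-08) per the authors' deposited table (chr16:89724786-89725970). The ZNF276 construct with 7.08-fold lower odds lay nearest the centre. The 2 RAB6A constructs, 934 bp from the start of a Golgi GTPase gene, stood at 0.01 ± 0.10 and 1.21 ± 0.20 per the authors' deposited table, where only the second was called (adjusted p = 9.28e-09, chr11:73762008-73763064).

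ANAPC2, the gene of a cullin subunit of the anaphase-promoting complex, had its central constructs below scrambled sequence and one near the end above it (chr9:137183707-137184877). Its 4 estimates per the authors' deposited table were -0.64 ± 0.11, -0.75 ± 0.14, 0.30 ± 0.12 and -0.08 ± 0.20 (adjusted p = 1.77e-08, 3.41e-07, 0.0265 and 0.735). The PLCH2 region, inside a phospholipase C gene, held 5 constructs with standard errors from 0.04 to 0.06 (chr1:2491438-2492298). They stood at -0.56 ± 0.06, -0.14 ± 0.06, 0.14 ± 0.04, -0.03 ± 0.05 and 0.13 ± 0.06 (adjusted p = 2.27e-18, 0.0313, 0.00031, 0.628 and 0.0302) per the authors' deposited table, so that the first 2 were called lower and 2 of the other 3 higher. Between the first and the third PLCH2 constructs the difference was 0.71 ± 0.07 (adjusted p = 3.41e-21, by the authors' errors), with the third higher.

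IQCK, an IQ motif gene, had estimates of -0.61 ± 0.09, 0.34 ± 0.08 and -0.19 ± 0.10 (adjusted p = 8.19e-10, 9.92e-05 and 0.0884) per the authors' deposited table (chr16:19853832-19854690). TMC7, a transmembrane channel-like gene, had -0.01 ± 0.11, 0.07 ± 0.07 and -0.47 ± 0.17 (adjusted p = 0.924, 0.393 and 0.0121) per the authors' deposited table (chr16:19060992-19061843). IQCK thus held a call in each direction from sites 55 bp apart and TMC7 1 lower call. AJAP1, which encodes a protein of adherens junctions, had no lower call, at -0.06 ± 0.06, 0.47 ± 0.21 and 0.37 ± 0.11 (adjusted p = 0.42, 0.0438 and 0.00203) per the authors' deposited table (chr1:4673490-4674528). ZNF544, another zinc finger gene, had 3 positive estimates of 0.12 ± 0.31, 0.39 ± 0.20 and 0.33 ± 0.29 (adjusted p = 0.762, 0.0816 and 0.316) per the authors' deposited table and no call, with standard errors of 0.20 to 0.31 (chr19:58261635-58262753).

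The remaining long-class members stood alone in their regions, apart from the bounded WASF2 construct, which was called higher at 0.29 ± 0.10 per the authors' deposited table. Those in RAPGEF6, a Rap exchange factor gene (chr5:131432929-131433760), and IGSF11, an adhesion molecule gene (chr3:118946036-118947048), were called lower at -0.66 ± 0.23 and -0.85 ± 0.37 per the authors' deposited table. The one in GRIN2A, an NMDA receptor subunit gene (chr16:10126499-10127481), stood at 0.41 ± 0.24 and was not called per the authors' deposited table. At the length limit, the longest region inside it was that of ZNF276 (1185 bp), with estimates of -1.96 to 0.37. The shortest region outside it lay at AREL1, a ubiquitin ligase gene, with 1207 bp and 2 uncalled constructs at 0.24 ± 0.14 and -0.05 ± 0.18 per the authors' deposited table.

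By relative place, the middle of the short regions held more lower than higher calls, and each outer part held more higher than lower calls over all lengths together. Place was taken as the distance from the region's start over its length along the plus strand, and the region was cut into 3 equal parts. The first part held 30 constructs, with 11 higher and 7 lower calls and a median estimate of 0.01 per the authors' deposited table. The middle part held 45, with 8 higher and 18 lower calls and a median of -0.07 per the authors' deposited table. The last part held 32, with 12 higher and 8 lower calls and a median of -0.02 per the authors' deposited table. The called shares were 60.0%, 57.8% and 62.5%, so the parts differed in the direction of the calls more than in their number.

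The 18 lower calls of the middle part lay in 14 regions, with 2 each at ANAPC2, TTLL3, PLCH2 and TIMELESS and 1 each at ADAMTS2, FDPS, GGT6, IQCK, JPH3, LIMA1, LOC112694756, MEIS3, TMC7 and ZNF276. Its 8 higher calls lay in 7 regions, with 2 at SF3A1 and 1 each at IQCK, PLCH2, RAB6A, UCKL1, WASF2 and ZNF276. Within length classes, the middle part held 1 higher and 1 lower call up to 400 bp, 0 and 6 over 400 to 800 bp, and 7 and 11 over 800 to 1200 bp per the authors' deposited table. The first part held 4 higher and 3 lower, 6 and 2, and 1 and 2 calls in these classes, and the last part 4 and 2, 3 and 2, and 5 and 4 per the authors' deposited table. With Bonferroni adjustment the first part kept 7 and 3 calls, the middle 5 and 11 and the last 4 and 3. The excess of lower calls in the middle part was thus not seen in the shortest class, where 7 constructs lay there, nor the excess of higher calls in the first part of the longest class. The middle's balance shifted to 14 higher and 19 lower calls when the middle was widened to the central 50% of the region's length, a setting chosen after the values were seen. In the longer regions of the series, 91 higher and 68 lower calls in all, the first part held 38 higher and 23 lower calls, the middle 24 and 16 and the last 29 and 29 per the authors' deposited table. The lean of the middle part to lower calls was not seen there, and the difference between short and longer regions was not tested. No test was made of these counts, since constructs of 1 region may share sequence, and the median estimates of the 3 parts differed by less than the median standard error of 0.12.

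The direction by place did not show as a trend in the estimates. Spearman's rho of the estimate was -0.07 with place from the start and -0.12 with distance to the nearest end relative to the length, in both cases over 104 constructs that share libraries and may share sequence. Within regions, the site nearest the centre had the higher estimate than the farthest one in 12 of 28 regions and the lower in 16. Nearest and farthest refer to the tested sites, which in some regions, such as CIAO3, all lay in 1 of the 3 parts. The count is thus not a comparison of centre against edge in every region. The last site stood above the first in 13 of the 28 regions and below it in 15. GGT6, LIMA1 and LOC112694756 were among the regions where the centre stood lowest. At SF3A1, RAB6A, HYAL1 and TIMELESS the site nearest the centre stood above the farthest by 1.20 or more. These 7 were named after their values were seen. At HYAL1 the nearest site lay at 30.6% of the length, in the first part. All 4 TIMELESS sites lay in the middle part. Of 38 constructs with a site under 100 bp from a region end, 14 were called higher and 9 lower per the authors' deposited table, and of the 69 farther in, 17 and 24. The 38 lay in shorter regions, with a median length over constructs of 467 bp against 861 bp for the 69. The part of region length in this contrast was not tested.

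Estimates of constructs of the same short region often differed by more than the authors' model errors, also where their sites were close. Of 145 same-region pairs of bounded members in 28 regions, 90 differed at an adjusted p under 0.05 (62.1%), beside 60.0% of all 824 same-region pairs of the table. The count was 50 with Bonferroni adjustment. With the z of the pairs divided by 4.12, the count was 2, both at CIAO3 with sites 25 and 30 bp apart. No pair up to 10 bp apart passed. That divisor is the robust SD of z over the constructs of the table, and the spread of the pairs' own z was not used. In 75 of the 145 pairs the estimates per the authors' deposited table had opposite signs, in 31 pairs one construct was called higher and the other lower, and in 28 both were called in the same direction. The median difference was 0.51 in size, a 1.66-fold difference of odds, against a median error of a difference of 0.16.

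Differences of over 2 were met both between close and between distant sites. Among 12 pairs with sites up to 10 bp apart, the median difference was 0.54 and 7 pairs differed. Among 34 pairs at 11 to 50 bp it was 0.41 with 18 that differed, among 52 pairs at 51 to 200 bp 0.42 with 34, and among 47 pairs over 200 bp apart 0.65 with 31. These distance limits were set after the values were seen, and Spearman's rho between distance and size of difference was 0.09 over the 145 pairs, which share constructs. The 7 pairs up to 10 bp apart that differed lay at MACIR, JPH3, HYAL1, RGL2/TAPBP, TTLL3, CIAO3 and TIMELESS. At TIMELESS the first construct stood below the second, 8 bp away, by 1.47 ± 0.53 (adjusted p = 0.0108, by the authors' errors). At RGL2/TAPBP the third stood above the second by 1.37 ± 0.36 (adjusted p = 0.000367, by the authors' errors), and at JPH3 the fourth above the third, 9 bp before it, by 0.64 ± 0.13 (adjusted p = 2.12e-06, by the authors' errors). At TTLL3 the second construct was below the first, 3 bp away, by 0.79 ± 0.21 (adjusted p = 0.000566, by the authors' errors), with both below scrambled sequence. The 5 other near pairs, 1 each at HNRNPF, ADAMTS2, EIF1AX, AJAP1 and in the RGL2/TAPBP region, did not pass, with differences of 0.09 to 0.44.

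Mutants of the same name were in the authors' second table for 96 of the 107 members, where mutant is set against wild-type sequence. There 33 were called higher, 25 lower and 38 neither per the authors' deposited table, or 58 of 96 beside a background of 56.6% of all 1025 mutants. Both comparisons involve the wild-type sequence, so the values are given side by side and no relation between them is drawn. At ZNF276 the mutant of the fourth construct stood at 2.06 ± 0.36 over wild-type per the authors' deposited table (adjusted p = 7.57e-08), beside -1.96 ± 0.34 for that wild-type construct over scrambled sequence. At TIMELESS the first mutant stood at 2.10 ± 0.54 per the authors' deposited table, beside -1.73 ± 0.51 for its wild-type construct. The mutants of the deletion and insertion pair at MACIR stood at -0.34 ± 0.08 and 1.15 ± 0.31 per the authors' deposited table, beside 0.88 ± 0.20 and -1.70 ± 0.28 for wild-type. At the first CIAO3 site the mutant was called higher at 0.29 ± 0.07 per the authors' deposited table, beside -1.12 ± 0.06 for wild-type. These have opposite signs in the 2 tables, as most members called in both do. A smaller number of those called in both have the same sign. Wild-type is the upper term of the first comparison and the lower term of the second. An error in the wild-type value alone thus favours opposite signs, so this balance was not tested and is not read as a result. The second LOC112694756 mutant stood at -0.54 ± 0.10 per the authors' deposited table, beside -0.95 ± 0.07 for wild-type. The second ANAPC2 mutant stood at -0.45 ± 0.14 per the authors' deposited table, beside -0.75 ± 0.14 for wild-type. For the third RGL2/TAPBP construct the values were 0.63 ± 0.12 for the mutant and 0.63 ± 0.21 for wild-type per the authors' deposited table, and for the first of SF3A1 0.39 ± 0.11 and 1.20 ± 0.42. In all, 40 members were called in both tables.

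Mutants were also called at sites whose wild-type construct was not. At EIF1AX the third mutant was called lower at -0.67 ± 0.09 per the authors' deposited table and the first higher at 0.37 ± 0.11, beside wild-type values of 0.06 ± 0.06 and -0.04 ± 0.12. At JPH3 the third mutant was called higher at 0.82 ± 0.09 per the authors' deposited table (adjusted p = 3.43e-20), beside -0.07 ± 0.09 for wild-type. The ZNF544 region, without a wild-type call, had its first 2 mutants called higher at 1.01 ± 0.30 and 0.79 ± 0.20 per the authors' deposited table. The second IQCK mutant was called lower at -1.07 ± 0.10 per the authors' deposited table (adjusted p = 1.42e-24), beside 0.34 ± 0.08 for wild-type, which was called higher. In the ADAMTS2 region the mutants were called in 7 of 8 cases per the authors' deposited table, 3 higher and 4 lower, from -0.92 ± 0.15 at the sixth site to 0.35 ± 0.05 at the third. The mutants named by value were chosen after their values were seen.

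By annotation, 25 of the 35 regions fell within protein-coding genes, 9 between genes and 1 over a gene end. The 84 constructs inside genes had 25 higher and 25 lower calls per the authors' deposited table, and the 20 intergenic ones 6 and 5. Gene starts were those of the RefSeq promoter windows, which do not list every gene. No region held a listed start, and the median distance to the nearest one was 7993 bp. The 5 regions within 1000 bp of a start, at EIF1AX, MEIS3, CIAO3, TIMELESS and RAB6A, held 15 constructs with 3 higher and 4 lower calls per the authors' deposited table. By the reference base at a substituted site, the medians per the authors' deposited table were -0.01 for A (40 constructs), -0.16 for C (14), -0.04 for G (20 bounded) and -0.09 for T (22 bounded). These medians differed by little against quartiles of -0.36 and 0.33 over all members, and no test was made. The gene table used here does not tell exons from introns.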

How the data were processed

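The study transduced C4-2B cells with a lentiMPRA library and sequenced RNA, gDNA and a barcode association library, per the labels. The submitters' processing notes list Bowtie2 and hg38, with no step assigned to either. Barcode filters, construct length, the scrambled partners and the full model are given in none of the sources read. The authors deposited, per construct, the natural log of an odds ratio, its z score, a p-value and an adjusted q-value, with replicates combined. Counts were not analysed here, so depth and replicate spread are unknown and no count model was run. The direction was read from the name of each table.

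The p matched a two-sided normal test of z when recomputed, and q matched its Benjamini-Hochberg adjustment over all constructs. Python 3.11.15, pandas 2.3.3 and scipy 1.17.1 were used. The start in a name was raised by 1 base. Genes come from RefSeq GRCh38.p14, and gene starts from its promoter windows. The pair test was tested on simulated data with independent normal errors of the size that the authors' model gave. Larger or shared errors were not simulated. Members, lists and named constructs were chosen with earlier results of these data known, although the rule for members used region length only. The rule for names took each short region, with full values for regions of 3 or more constructs and the 10 highest and 10 lowest called estimates. Planned motif counts around the sites were not run, since no genome was used here. Alternatives covered adjustment, scaling of z, standard error, length limits and 1 construct per region.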

Additional observations from a re-analysis of the deposited data

How the results depend on the processing

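No paired analysis was possible because the deposited tables hold comparisons with the replicates combined, and for the same reason no replicate could be left out. Against 64 called members, 31 higher and 33 lower, Bonferroni adjustment left 33, 16 and 17. Division of z by its robust SD left 1, 0 and 1. With 1 construct per region, the one with the smallest standard error, 18 of 35 were called, 9 higher and 9 lower, by the construction of fewer constructs. Regions of up to 1000 bp held 21 lower calls among 73 constructs, against 33 among 107, so this lower count also goes with fewer constructs. The counts under an unadjusted p, with standard errors up to 0.5 and with regions of up to 1500 bp, and the other counts for up to 1000 bp, stayed within 1.5 times. The median estimate moved by less than the median standard error under each of its 6 alternatives. Spearman's rho with length was 0.14 for the size of the estimate, against -0.09 for the estimate itself. With place turned to the gene's strand, in 65 constructs of 20 regions, rho with place was 0.11, against -0.11 for the same 65 along the plus strand and -0.07 for all 104. In the middle part of the regions, 8 higher and 18 lower calls became 5 and 11 with Bonferroni adjustment, 5 and 7 with 1 construct per region, and 14 higher calls with the central 50%, all chosen after seeing the data. Of 90 differing pairs, 50 passed Bonferroni adjustment and 2, both at CIAO3, the scaling of their z by the robust SD of the constructs' z. For single constructs, Bonferroni adjustment ended 31 calls and the scaling 63, while an unadjusted p added 2. No count or depth per construct limits or supports any value here beyond its standard error.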
